A study of Homo sapiens with 6 samples.

Results

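The genes described here are 10 components of the WNT pathway, taken from the 35410 genes of a MACE-Seq table by their symbols. They are the ligands WNT6, WNT10A and WNT10B, the receptors FZD3 and FZD6, the coreceptor LRP6, the transducer CTNNB1 (beta-catenin), the scaffolds AXIN1 and AXIN2, and the nuclear factor TCF7L2. WNT6 and WNT10A were chosen by their level in the control line, where they were off, so their difference between the lines is described here and was not tested. MACE-Seq reads the 3′ ends of polyadenylated RNA, which gives about 1 tag per transcript irrespective of its length. RNA came from SEM, a human leukemia line of proB type that bears the fusion KMT2A::AFF1. SEM::mock carries the empty vector and SEM::EGR3 a doxycycline-inducible EGR3, a zinc finger transcription factor, and both lines received 1 µg/mL doxycycline for 48 h before RNA extraction. Each line has 3 biological replicates, and no library without doxycycline or of the parental line was analysed here. The lines therefore differ in the vector as well as in the level of EGR3, and these cannot be told apart.

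WNT proteins are secreted, lipid-modified signals that act over short distances. They bind a Frizzled receptor together with LRP5 or LRP6. Without a ligand, AXIN, APC and the kinases GSK3 and CK1 form a complex that marks beta-catenin for degradation. Once the receptor is engaged, the complex is held at the membrane, beta-catenin accumulates, and it enters the nucleus, where it works with TCF and LEF factors on target genes such as AXIN2, which feeds back on the pathway. In early B cell development WNT signals are known for supporting the growth of progenitors, and LEF1 was described in this context.

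Library totals over the listed genes were 5286115 to 6181388 counts for SEM::mock and 7293092 to 15106018 counts for SEM::EGR3. EGR3 had 8, 10 and 6 counts across SEM::mock and 9768, 4952 and 5557 across SEM::EGR3. Of 11 proB and B lineage markers, 8 were at 3 counts or fewer in every SEM::mock library and 2 in every SEM::EGR3 library. PAX5 had 1, 1 and 2 counts and EBF1 none in SEM::mock, and the summed level of the list was 2.64 to 5.86 CPM in SEM::mock against 494 to 522 CPM in SEM::EGR3. The erythroid list (globins, GATA1 and others), of which 9 of 10 genes lay above this limit in both lines, summed to 4731 to 5026 CPM and 6065 to 6316 CPM, although 6 of its 9 tested genes were lower in SEM::EGR3, such as KLF1 (log2 fold change -2.18) and HBG2 (-1.30), and only HBZ, HBA1 and HBA2 were higher. The 4 targets of KMT2A fusions (HOXA7, HOXA9, HOXA10 and MEIS1) summed to 20.7 to 23.1 CPM in SEM::mock and 247 to 269 CPM in SEM::EGR3, with HOXA7 at 0 counts in each SEM::mock library. The sums were 212 to 233 CPM against 52.3 to 55.5 CPM for 6 myeloid markers, 59.4 to 65.1 CPM against 58.2 to 64.2 CPM for 6 T cell markers, 869 to 911 CPM against 428 to 460 CPM for 5 epithelial markers, 6.34 to 9.01 CPM against 65.5 to 66.5 CPM for 4 fibroblast markers and 6.06 to 7.85 CPM against 11.9 to 13.4 CPM for 2 megakaryocyte markers. The proB label was thus not met by its defining markers in the libraries labelled SEM::mock, and both lines held abundant erythroid transcripts. The T cell sum joined opposite differences, since CD3D had 319, 342 and 310 counts against 86, 54 and 54, and LCK 0, 0 and 2 counts against 785, 402 and 469. The summed levels of the other lists did not overlap between the lines, and the part of these markers in the results was not tested. Whether the libraries of both lines came from the same parental cells was not tested either, so each fold change compares the libraries as they are labelled. In bulk RNA, fewer cells of a type and less RNA per cell cannot be told apart.

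Of the 10 genes, 9 passed the filter on low counts and AXIN2 did not. Levels are given as TMM-normalized CPM, the counts per 1000000 listed counts after scaling of the libraries. Fold changes are log2 of SEM::EGR3 over SEM::mock with their standard error (SE). Among the 7 genes that were neither selected for their level nor below the filter, edgeR's quasi-likelihood test called 3 higher and 2 lower in SEM::EGR3 (Benjamini-Hochberg adjusted p under 0.05 over 15465 genes), and 2 did not pass. Over all tested genes, 36.5% were higher and 32.0% lower, so that most tested genes differed between the lines. The libraries of the lines did not overlap for 5 of these 7 genes, against 70.2% of all tested genes. Counting WNT6, WNT10A and AXIN2, the libraries did not overlap for 8 of the 10 genes. This count includes the choice of WNT6 and WNT10A as off in SEM::mock, and AXIN2 exceeded 3 counts only in SEM::EGR3. The shares of the 7 genes lie near the background, and the account that follows rests on the direction and size of each gene's difference.

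**Figure D1:**
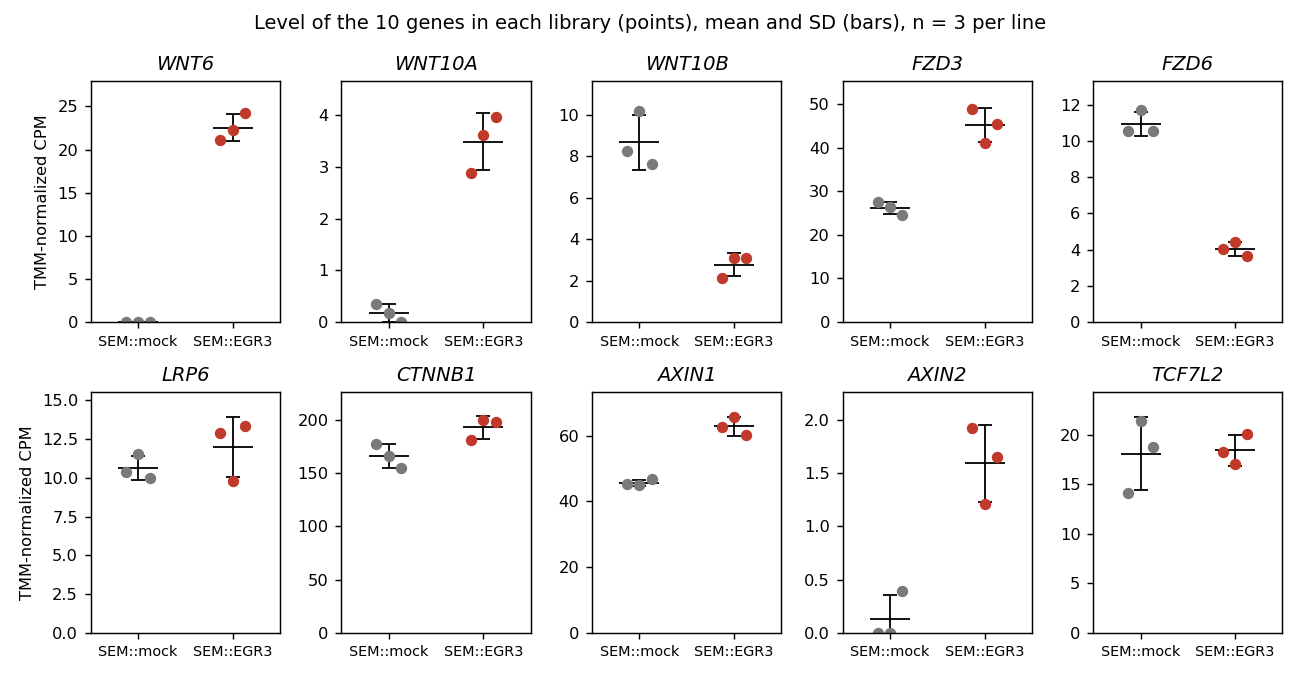
Level of each gene in TMM-normalized CPM (vertical axes, each starting at 0 with its own scale) in the 3 SEM::mock and 3 SEM::EGR3 libraries (points), with mean and SD (bars). WNT6 lies at 0 in SEM::mock and between 21.1 and 24.2 CPM in SEM::EGR3, WNT10B and FZD6 are lower in every SEM::EGR3 library, and the points of LRP6 and TCF7L2 overlap.

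WNT6 and WNT10A are WNT ligands that lie side by side on chromosome 2. WNT6 (ENSG00000115596, GRCh38, chromosome 2, 218859821 to 218874233, plus strand) was without a count in all SEM::mock libraries and had 329, 166 and 220 counts in SEM::EGR3 replicates 1 to 3. Its level in SEM::EGR3 was 21.1, 22.3 and 24.2 CPM, with a mean of 22.5 ± 1.56 CPM (SD, n = 3). Measured against a limit of 3 counts in each SEM::mock library, the SEM::EGR3 level was at least 41.8-fold higher. WNT10A (ENSG00000135925, chromosome 2, 218880363 to 218899581, plus strand) begins 6129 bases after the end of WNT6. It had 2, 1 and 0 counts across SEM::mock and 45, 27 and 36 across SEM::EGR3, and its level in SEM::EGR3 was 2.89, 3.62 and 3.96 CPM, at least 6.48-fold above the limit of SEM::mock. The weakest SEM::EGR3 library of either ligand lay above every SEM::mock library, as the choice of genes that were off in SEM::mock implies. In SEM::EGR3, WNT10A was thus the weaker neighbour, at 3.49 ± 0.548 CPM (SD, n = 3).

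The RefSeq promoters of 5 of the 10 genes were available (WNT6, WNT10A, CTNNB1, AXIN1 and TCF7L2, 7 windows in all), each running from 250 bases before to 50 bases after a start. The bases before the start are shown for WNT6, the ligand with the highest level in SEM::EGR3, and for AXIN1, which had the most matches to the binding motif of EGR factors. The motif was searched as GCGTGGGCG or GCGGGGGCG on both strands, spellings that cannot match at the same position, and capitals mark a match as it reads on the strand of the gene. The windows are WNT6 at chr2:218859555-218859804 (plus strand) and AXIN1 at chr16:352724-352973 (minus strand), both in GRCh38.p14.
WNT6: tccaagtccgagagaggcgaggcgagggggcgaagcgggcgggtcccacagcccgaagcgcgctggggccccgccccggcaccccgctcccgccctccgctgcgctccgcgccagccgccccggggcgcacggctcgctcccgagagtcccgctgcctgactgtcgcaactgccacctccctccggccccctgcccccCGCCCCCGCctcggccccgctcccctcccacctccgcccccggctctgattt
AXIN1: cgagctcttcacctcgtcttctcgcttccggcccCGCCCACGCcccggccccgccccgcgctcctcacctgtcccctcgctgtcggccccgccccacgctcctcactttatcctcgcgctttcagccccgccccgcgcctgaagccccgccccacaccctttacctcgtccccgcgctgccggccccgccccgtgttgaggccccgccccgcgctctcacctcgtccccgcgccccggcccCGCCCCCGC

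The WNT6 promoter held 1 match, which lies 52 to 44 bases before the start and reads GCGGGGGCG on the opposite strand. No match was found in the window of CTNNB1 or in that of WNT10A, which is not shown because GENCODE places it within the untranslated part of the first exon. AXIN1 had 3 matches, 1 of GCGTGGGCG and 2 of GCGGGGGCG, the last of them after the start and not shown. TCF7L2 had 1 match, 100 to 92 bases before the start, in 1 of its 3 windows. Of all 35116 promoter windows, 2026 (5.77%) held the motif. Both promoters shown are rich in G and C, with 79.2% in WNT6 and 77.6% in AXIN1, where the median over all windows was 58.0%. Among the 2398 windows with at least 77% G and C, a set chosen after these shares were seen, 29.9% held the motif. The TCF/LEF motif CTTTGAT was in 2.62% of all windows and in none of the 7 windows of these genes. A match describes letters only, and binding was not measured in these libraries.

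WNT10B moved in the other direction. WNT10B (ENSG00000169884, chromosome 12, 48965340 to 48971763, minus strand), a ligand best known from the formation of bone and fat, had 47, 61 and 39 counts across SEM::mock and 33, 23 and 28 across SEM::EGR3, although the SEM::EGR3 libraries were deeper. Its level was 8.28, 10.2 and 7.62 CPM in SEM::mock and 2.12, 3.08 and 3.08 CPM in SEM::EGR3. No SEM::EGR3 library reached the lowest SEM::mock library. Its log2 fold change of -1.72 (SE 0.21, 95% confidence interval -2.16 to -1.29, adjusted p = 8.43e-08) corresponds to a level 3.30-fold lower in SEM::EGR3. WNT1, the neighbouring ligand 6689 bases further on, was hardly detected, with 4, 4 and 1 counts across SEM::mock and 6, 2 and 1 across SEM::EGR3.

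The ligand with the most counts differed between the lines. Of 19 listed WNT ligand genes, 16 were in the table, and their summed level was 15.7 ± 2.46 CPM in SEM::mock and 37.1 ± 3.03 CPM in SEM::EGR3 (SD, n = 3 each). Without WNT6 and WNT10A, which were chosen for being off in SEM::mock, the remaining 14 ligands summed to less in SEM::EGR3, at 11.1 ± 0.995 CPM against 15.6 ± 2.41 CPM (SD, n = 3 each), and the lines did not overlap. WNT10B accounted for 54.0%, 55.5% and 56.5% of the ligand counts of the SEM::mock libraries and for 6.16%, 8.46% and 7.63% in SEM::EGR3. WNT6 took 61.4%, 61.0% and 59.9% in SEM::EGR3, and WNT10A between 8.40% and 9.93%. The dominant ligand was therefore WNT10B in all 3 SEM::mock libraries and WNT6 in all 3 SEM::EGR3 libraries. The shares rest on 69 to 110 ligand counts per library in SEM::mock and on 272 to 536 in SEM::EGR3, and they include the selection of WNT6 and WNT10A.

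The remaining ligands followed no common direction. WNT3 had 18, 20 and 13 counts across SEM::mock and 4, 5 and 7 across SEM::EGR3 and fell by 2.56 on the log2 scale (SE 0.37, adjusted p = 1.52e-06), and its share of the ligand counts was 18.2% to 20.7% in SEM::mock and 0.746% to 1.91% in SEM::EGR3. WNT5B, a ligand of the branch that does not depend on beta-catenin, had a log2 fold change of -1.08 (SE 0.36, adjusted p = 0.0104). WNT2B had 1, 2 and 3 counts across SEM::mock and 61, 28 and 40 across SEM::EGR3, at least 7.47-fold higher. In all, 8 ligands exceeded 3 counts in a SEM::EGR3 library but in no SEM::mock library. Among them were WNT6 and WNT10A, chosen for being off in SEM::mock, WNT2B, and WNT9A with 0, 3 and 0 counts against 9, 9 and 9. The libraries overlapped for the others, WNT2, WNT3A, WNT9B and WNT11. The mean level of WNT11 was lower in SEM::EGR3, at 0.210 CPM against 0.421 CPM. The reverse was seen for 0 ligands, in libraries of SEM::mock that were shallower. The matching share over all genes of the table was not counted, so these numbers only describe the listed ligands.

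**Figure D2:**
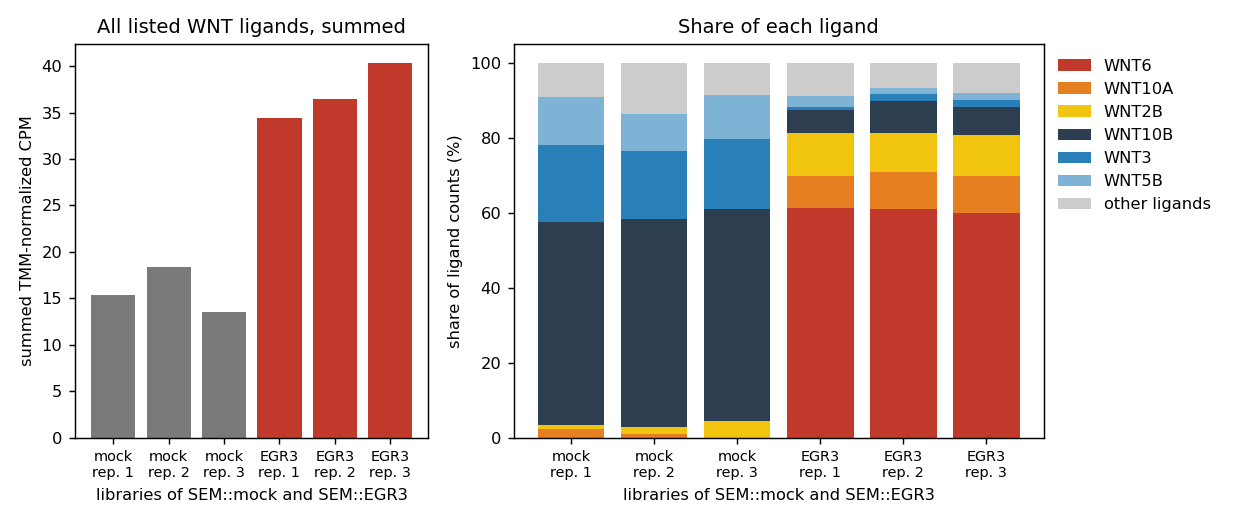
Left, summed level of the 16 WNT ligand genes in TMM-normalized CPM for each library (bars from 0). Right, share of each ligand in the ligand counts of that library in percent. The sums lie between 13.5 and 18.4 CPM in SEM::mock and between 34.4 and 40.4 CPM in SEM::EGR3, where WNT6, chosen for being off in SEM::mock, has the largest share. Without WNT6 and WNT10A the sums lie between 13.5 and 18.2 CPM in SEM::mock and between 10.4 and 12.2 CPM in SEM::EGR3.

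Frizzled receptors span the membrane and bind the ligand outside the cell. FZD3 (ENSG00000104290, chromosome 8, 28494205 to 28574268, plus strand), a receptor known for guiding axons, had 156, 158 and 126 counts across SEM::mock and 762, 307 and 412 across SEM::EGR3. Its level was 27.5, 26.4 and 24.6 CPM in SEM::mock and 48.9, 41.2 and 45.3 CPM in SEM::EGR3, without overlap. This is a difference of 0.80 on the log2 scale (SE 0.09, 95% confidence interval 0.62 to 0.99, adjusted p = 2.05e-08), or 1.74-fold. FZD6 (ENSG00000164930, chromosome 8, 103298433 to 103332866, plus strand), a receptor of planar cell polarity and of hair and nail growth, went the opposite way. It had 60, 70 and 54 counts across SEM::mock and 63, 33 and 33 across SEM::EGR3. Its level of 10.6, 11.7 and 10.6 CPM in SEM::mock was above that of every SEM::EGR3 library (4.04, 4.42 and 3.63 CPM). FZD6 was 2.72-fold lower in SEM::EGR3, at -1.44 on the log2 scale (SE 0.17, 95% confidence interval -1.79 to -1.09, adjusted p = 4.57e-08).

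All 10 Frizzled genes were in the table. Their summed level was 87.4 ± 1.01 CPM in SEM::mock and 114 ± 3.35 CPM in SEM::EGR3 (SD, n = 3 each). FZD3 had the largest share of the Frizzled counts in each library, with 27.8% to 31.7% in SEM::mock and 37.2% to 42.4% in SEM::EGR3. FZD6 accounted for 11.9% to 13.4% and 3.1% to 4.0%. FZD8 stood at 3 counts throughout SEM::mock and at 53, 34 and 31 across SEM::EGR3. Its mean CPM was 7.04-fold higher, a ratio of measured levels, since 3 counts is also the limit used for lower bounds. The fitted log2 fold change of FZD8 was 2.75 (SE 0.37, 95% confidence interval 1.99 to 3.51, adjusted p = 3.86e-07). FZD1 had a log2 fold change of 1.38 (SE 0.14, adjusted p = 4.48e-09). FZD7 was also higher, with a log2 fold change of 0.75 (SE 0.29, adjusted p = 0.028). The Frizzled genes thus differed in both directions, with FZD6 the only tested one called lower. FZD2, FZD4 and FZD5 did not pass the test.

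LRP6 (ENSG00000070018, chromosome 12, 12116025 to 12267012, minus strand), the coreceptor that recruits AXIN on activation, had 59, 69 and 51 counts across SEM::mock and 201, 73 and 121 across SEM::EGR3. Its level was 10.4, 11.5 and 9.97 CPM in SEM::mock and 12.9, 9.79 and 13.3 CPM in SEM::EGR3. SEM::EGR3 replicate 2 lay below all SEM::mock libraries and the other two above them. The log2 fold change of 0.20 (SE 0.15, adjusted p = 0.233) did not pass the test, and its 95% confidence interval ran from -0.10 to 0.50. LRP5, the related coreceptor, was lower in SEM::EGR3 with 193, 206 and 181 counts against 154, 79 and 113, a log2 fold change of -1.67 (SE 0.11, adjusted p = 6.34e-13). The number of LRP5 counts per LRP6 count was 3.27 ± 0.282 (SD, n = 3) in SEM::mock and 0.927 ± 0.158 (SD, n = 3) in SEM::EGR3.

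CTNNB1 (ENSG00000168036, chromosome 3, 41194741 to 41260096, plus strand), which encodes beta-catenin, was the most abundant of the 10 genes. It had 1006, 994 and 793 counts across SEM::mock and 2819, 1491 and 1802 across SEM::EGR3. Its level was 177, 166 and 155 CPM in SEM::mock and 181, 200 and 198 CPM in SEM::EGR3. The closest libraries, SEM::mock replicate 1 and SEM::EGR3 replicate 1, were separated by less than the SD within either line. CTNNB1 was 1.16-fold higher in SEM::EGR3, at 0.21 on the log2 scale (SE 0.06, 95% confidence interval 0.09 to 0.34, adjusted p = 0.00297). Without SEM::mock replicate 3 it was 0.15 with an adjusted p = 0.0511, so the call rests on this library. Since beta-catenin is controlled mainly by degradation of the protein, RNA gives only part of its regulation.

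AXIN1 and AXIN2 encode the scaffold on which beta-catenin is marked for degradation. AXIN1 (ENSG00000103126, chromosome 16, 287440 to 352673, minus strand) had 257, 270 and 239 counts across SEM::mock and 976, 490 and 547 across SEM::EGR3. Its level was 45.3, 45.1 and 46.7 CPM in SEM::mock and 62.6, 65.7 and 60.2 CPM in SEM::EGR3. The replicates of each line lay close together and the lines did not overlap. AXIN1 was higher in SEM::EGR3 by 0.46 on the log2 scale (SE 0.07, 95% confidence interval 0.32 to 0.61, adjusted p = 3.06e-06), or 1.38-fold.

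AXIN2 (ENSG00000168646, chromosome 17, 65528563 to 65561647, minus strand), the scaffold that is itself a target of beta-catenin and is widely read as a sign of pathway activity, was barely transcribed. It had 0, 0 and 2 counts across SEM::mock and 30, 9 and 15 across SEM::EGR3. Its level in SEM::EGR3 was 1.93, 1.21 and 1.65 CPM, with a mean of 1.59 ± 0.363 CPM (SD, n = 3). Measured against 3 counts in each SEM::mock library it was at least 2.96-fold higher. AXIN2 was removed by the expression filter and was thus not tested. Alternative fits that kept it, through its SEM::EGR3 counts only, gave log2 fold changes from 3.06 to 6.88. Without the filter the value was 3.64. The highest came from leaving out SEM::mock replicate 3, the only SEM::mock library with a count. These sizes depend on how counts of 0 are treated and carry no test. At a limit of 10 counts per library the bound was 0.888-fold, which is no bound above 1.

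TCF7L2 (ENSG00000148737, chromosome 10, 112950250 to 113167678, plus strand), a DNA-binding partner of beta-catenin, had 80, 128 and 96 counts across SEM::mock and 284, 127 and 183 across SEM::EGR3. Its level was 14.1, 21.4 and 18.8 CPM in SEM::mock and 18.2, 17.0 and 20.1 CPM in SEM::EGR3. All SEM::EGR3 libraries lay within the range of the SEM::mock libraries. TCF7L2 did not pass the test, at 0.03 on the log2 scale (SE 0.13, adjusted p = 0.831), with a 95% confidence interval of -0.23 to 0.29. Differences within this interval could not be resolved with 3 libraries per line.

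By level, the genes of SEM::mock were ordered CTNNB1, AXIN1, FZD3, TCF7L2, FZD6, LRP6, WNT10B, then WNT10A and AXIN2 near the limit and WNT6 at 0. FZD6, LRP6 and WNT10B followed each other at 10.9 ± 0.649, 10.6 ± 0.801 and 8.69 ± 1.33 CPM (SD, n = 3), and neighbours overlapped within their SD. Within each SEM::mock library, FZD6 nevertheless lay above LRP6 and LRP6 above WNT10B. In SEM::EGR3 the order was CTNNB1, AXIN1, FZD3, WNT6, TCF7L2, LRP6, FZD6, WNT10A, WNT10B and AXIN2. There FZD6, WNT10A and WNT10B lay close at 4.03 ± 0.397, 3.49 ± 0.548 and 2.76 ± 0.556 CPM (SD, n = 3), and neighbours among these 3 overlapped within their SD. WNT10A lay above WNT10B in each SEM::EGR3 library, while FZD6 and WNT10A changed order between libraries. CTNNB1, AXIN1 and FZD3 kept the first places in both lines.

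Including these 10, 102 genes of the pathway were listed by role, of which 95 were in the table and 62 were tested, WNT6 and WNT10A among them. The test called 23 (37.1%) higher, with WNT6 and WNT10A entering through their selection, and 21 (33.9%) lower, close to the 36.5% and 32.0% of all tested genes. The median log2 fold change was 0.00 over the 62 genes and 0.03 over all tested genes. Without the 10 genes, 18 of 53 were higher and 19 lower. The 18 include WNT2B, WLS, FZD8, TLE1 and TLE4, each at 3 counts or fewer in every SEM::mock library. These passed the filter only through SEM::EGR3. With them included, calls in both directions were about equally frequent. In addition, 17 listed genes, WNT6 and WNT10A included, exceeded 3 counts in a SEM::EGR3 library but in no SEM::mock library, and 0 did the reverse. The SEM::EGR3 libraries were the deeper ones. Over the whole table, 22100 to 22764 genes had a count in a SEM::mock library and 25643 to 29011 in a SEM::EGR3 library. The share of all genes that exceeded 3 counts only in SEM::EGR3 was not counted, so the 17 genes have no matching background. Whether they mark a gain particular to the pathway was not tested.

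The components that act before the receptor differed as follows. Of the 4 tested genes of ligand secretion and processing, 2 were higher. WLS, the carrier that brings WNT proteins to the cell surface, had 1, 1 and 0 counts across SEM::mock and 30, 13 and 17 across SEM::EGR3, at least 3.43-fold higher. PORCN, which attaches the lipid to WNT proteins, had a log2 fold change of 0.91 (SE 0.26, adjusted p = 0.0036). Of 2 tested inhibitors and their receptors, KREMEN2, a receptor of Dickkopf proteins, was lower with a log2 fold change of -0.81 (SE 0.24, adjusted p = 0.00511). In the R-spondin module, which governs how long receptors stay at the surface, LGR6 was higher (log2 fold change 2.69, SE 0.31, adjusted p = 2.83e-08) and LGR4 lower (-1.49, SE 0.16, adjusted p = 9.07e-09). ZNRF3, a ligase that removes Frizzled receptors, had 0.38 (SE 0.16, adjusted p = 0.0379).

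**Figure D3:**
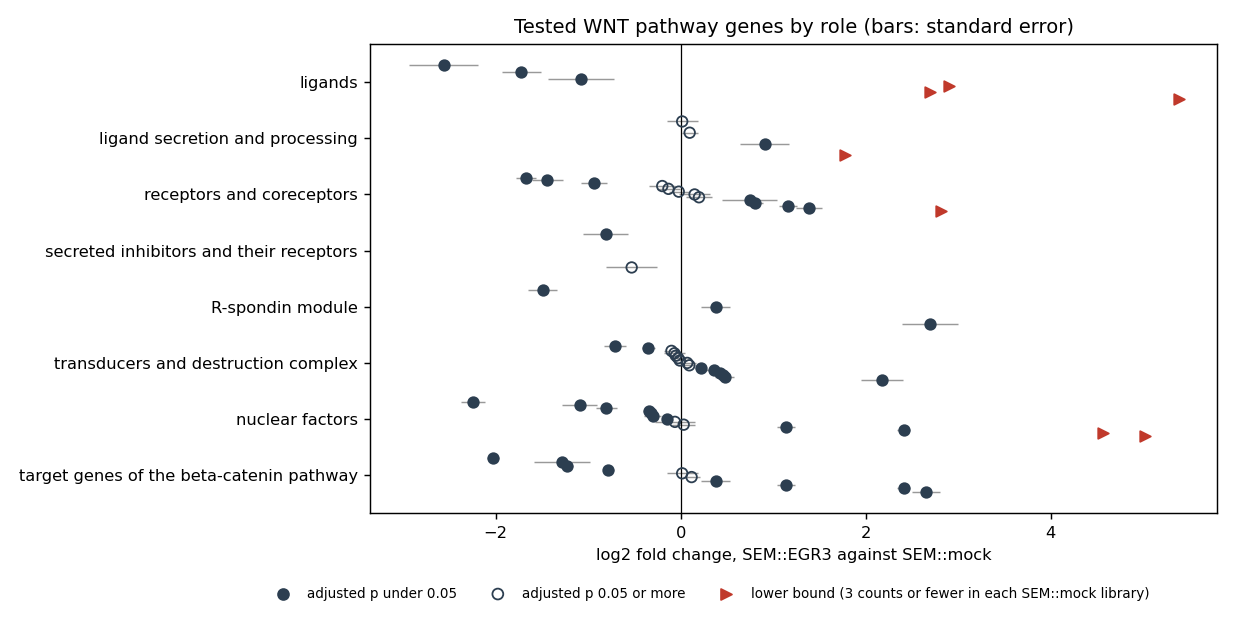
Log2 fold change of SEM::EGR3 against SEM::mock (horizontal axis) for the tested genes of each role, with standard error (grey bars). Filled circles passed an adjusted p-value under 0.05, open circles did not, and triangles are lower bounds for genes at 3 counts or fewer in each SEM::mock library. For FZD8, at exactly 3 counts in each of these libraries, the triangle is the measured ratio. Genes of most roles lie on both sides of 0.

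Inside the cell, 6 of 15 tested transducers and destruction complex genes were higher and 2 lower, with CTNNB1 and AXIN1 among the higher. AMER1, which brings AXIN and APC to the membrane, had the largest fitted difference of this list, with a log2 fold change of 2.18 (SE 0.23, adjusted p = 6e-09). TNKS2, a tankyrase that marks AXIN for degradation, was higher by 0.48 (SE 0.10, adjusted p = 0.000232), and APC was lower with -0.71 (SE 0.12, adjusted p = 9.78e-06). Of 13 tested nuclear factors, 4 were higher and 7 lower. The corepressors TLE4 and TLE1 had 0 counts in every SEM::mock library and were at least 32.3-fold and at least 23.7-fold higher in SEM::EGR3. Other members of this family were lower, namely TLE2 (log2 fold change -2.24, SE 0.13, adjusted p = 1.08e-13), TLE3 (-0.34, SE 0.07, adjusted p = 8.43e-05) and TLE5 (-0.14, SE 0.06, adjusted p = 0.0247). LEF1, the relative of TCF7L2, had 264, 312 and 269 counts across SEM::mock and 4311, 1831 and 2534 across SEM::EGR3, a log2 fold change of 2.41 (SE 0.07, adjusted p = 9.37e-20). TCF7 was also higher (1.14, SE 0.09, adjusted p = 1.02e-10). TCF7L2 and its relatives LEF1 and TCF7 thus differed in outcome, and a difference between their fold changes was not tested.

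Of 17 listed target genes of beta-catenin, 16 were in the table and 10 tested, with 4 (40%) higher and 4 (40%) lower, near the 36.5% and 32.0% of all tested genes. Higher were LEF1, TCF7, ZNRF3 and ASCL2, a stem cell factor with a log2 fold change of 2.65 (SE 0.15, adjusted p = 5.39e-14). Lower were CCND1 (-2.03, SE 0.07, adjusted p = 1.08e-18), CD44 (-1.23, SE 0.07, adjusted p = 6.94e-14), TNFRSF19 (-1.28, SE 0.30, adjusted p = 0.000534) and MYC (-0.79, SE 0.06, adjusted p = 1.86e-11). NKD2 and NOTUM, feedback inhibitors of the pathway, had log2 fold changes of 0.12 (adjusted p = 0.259) and 0.02 (adjusted p = 0.938). RNF43, not tested, had 14, 6 and 8 counts across SEM::mock and 12, 7 and 6 across SEM::EGR3. LEF1, CCND1, MYC and CD44 respond to many other signals as well.

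The neighbourhood of WNT6 and WNT10A was examined because both genes were off in SEM::mock. Within 250 kb of their starts, 26 other genes are annotated, 19 of them in the table and 11 tested, with 6 higher and 2 lower in SEM::EGR3. The median log2 fold change was 2.10 over these 11 genes and 0.03 over all tested genes, of which 36.5% were higher. Of the 11, CYP27A1 and AC097468.1 were at 3 counts or fewer in each SEM::mock library. They passed the filter only through SEM::EGR3 and raise this median. Up to 500 kb, a distance chosen after these values were seen, 13 of 27 tested genes were higher and 6 lower, with a median of 0.15. The higher genes were CYP27A1, CDK5R2, FEV, CRYBA2, AC097468.1 and CFAP65, and the lower ones TTLL4 and BCS1L. CYP27A1, a sterol hydroxylase, had 2, 1 and 0 counts across SEM::mock and 173, 97 and 106 across SEM::EGR3, at least 22.1-fold higher. CFAP65, a protein of the sperm tail, had a log2 fold change of 4.53 (SE 0.15, adjusted p = 2.21e-18), and CRYBA2, a lens crystallin, one of 4.17 (SE 0.14, adjusted p = 1.32e-18). IHH, the signal Indian hedgehog, was not tested and had 0, 0 and 1 counts across SEM::mock and 26, 6 and 10 across SEM::EGR3.

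In chromosomal order these genes form a run. From CYP27A1 to IHH (chromosome 2, 218781749 to 219060467, 279 kb), 10 genes exceeded 3 counts in a library, WNT6 and WNT10A included, and in 9 of them every SEM::EGR3 library lay above every SEM::mock library. The exception, RPL23AP31, is a pseudogene with 4, 6 and 5 counts across SEM::mock and 7, 7 and 5 across SEM::EGR3. Up to 500 kb, a distance chosen after the values within 250 kb were seen, 12 such genes lie on the side of lower coordinates, of which 1 was higher in every SEM::EGR3 library, 6 were lower in every one and 5 overlapped. The 12 genes on the side of higher coordinates comprised 5 higher, 1 lower and 6 overlapping. TTLL4, the next tested gene on the CYP27A1 side, had a log2 fold change of -0.59 (SE 0.08, adjusted p = 5.52e-07). The bounds of the run were drawn after the values were seen and carry no test. Of its 9 higher genes, CYP27A1, WNT6, WNT10A, AC097468.1 and IHH were at 3 counts or fewer in each SEM::mock library. They therefore exceeded the limit only through SEM::EGR3, whose libraries were deeper. Over all tested genes, the libraries did not overlap, in either direction, for 70.2%. Around WNT10B, 5 were higher, 4 lower and 5 not called of 14 tested genes within 250 kb, with a median of 0.04.

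**Figure D4:**
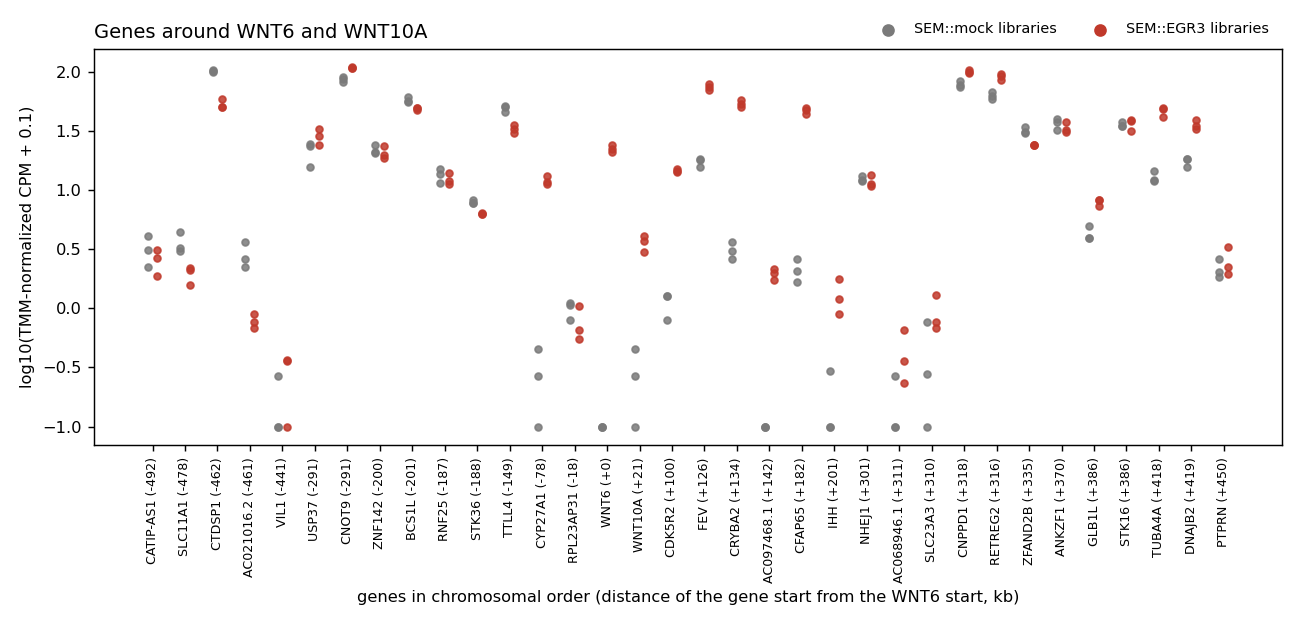
Level of each gene over 3 counts in a library within 500 kb of WNT6 or WNT10A, as log10 of TMM-normalized CPM plus a small constant (vertical axis), for the 3 SEM::mock and 3 SEM::EGR3 libraries (points), in chromosomal order with the distance of each start from that of WNT6 in kb. From CYP27A1 to IHH the SEM::EGR3 points lie above the SEM::mock points for 9 of 10 genes, and on either side genes are higher, lower or overlap. CYP27A1, WNT6, WNT10A, AC097468.1 and IHH exceed 3 counts only in SEM::EGR3 libraries.

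Over the 6 libraries, the tested genes most like WNT6 by Euclidean distance of log2(CPM + 0.5) were BASP1 (distance 0.0947), CLEC9A (0.113) and AK3 (0.143), each with 0 counts in all SEM::mock libraries. BASP1, a membrane protein of growing axons, had 317, 157 and 219 counts in SEM::EGR3, and CLEC9A, a lectin of dendritic cells, had 351, 174 and 220 counts. Those most like WNT10A were ARMCX4 (0.515), PALLD (0.521) and SNX20 (0.577), with at most 2 counts in a SEM::mock library. None of these 6 genes lies on chromosome 2. The distances are descriptions over 6 libraries that share the same 2 lines.

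Some of the 10 genes overlap other genes, and whether reads were counted by strand is not given in the sources used here. The antisense gene BAALC-AS1 in FZD6 had 2.45 CPM in SEM::mock and 1.48 CPM in SEM::EGR3, and ULK4, which overlaps CTNNB1 on the opposite strand, had 1.06 CPM and 1.89 CPM. The remaining overlapping genes in the table had at most 5 counts in a library, and WNT6, WNT10A, WNT10B and AXIN1 overlap no annotated gene.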

How the data were processed

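MACE-Seq of 3 biological replicates each of SEM::mock and SEM::EGR3 was analysed. For 35410 genes, the authors deposited raw counts in whole numbers, 1 column per library. Their processing notes name bcl2fastq, Bowtie2 and HTSeq and the build GRCh38. The annotation, the strand setting and the use of molecular identifiers are not given in the sources used here, so the detection limit covers counting error only. The authors also deposited values scaled per library and the fold changes and p-values of their own comparison, which were not used. Column headings spell ERG3, which was read as EGR3, and 0 per-sample columns remained unmapped.

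The quasi-likelihood test of edgeR 4.0.16 (glmQLFit and glmQLFTest, R 4.3.3) was applied to all 6 libraries with the line as the only term, after filterByExpr and TMM scaling. Benjamini-Hochberg adjustment covered all 15465 tested genes. On simulated counts of 15054 genes, the procedure recovered 82 of 96 genes changed by 1 and 98 of 98 changed by 2 on the log2 scale, with 4 false calls. Changes were simulated in few genes and equally in both directions, whereas 10594 genes were called in the data. The simulation therefore does not show how the procedure performs when most genes differ. Genes at 3 counts or fewer in every library of a line were given a lower bound, the mean CPM of the other line divided by the mean CPM of 3 counts. Replicates of a line differed by more than counting noise (chi-square per degree of freedom 1.71 to 3.32), so none was treated as a duplicate. P-values measure the spread between these libraries.

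The 10 genes, the lists and the tests were chosen with earlier results of these data known. From the erythroid marker list, 1 gene is not reported here and was left out of its sum. Named from each pathway list were up to 3 further genes with the largest absolute log2 fold change among those past an adjusted p of 0.05 whose libraries did not overlap and whose mean in the higher line reached 10 counts. All detected target genes, genes within 250 kb of WNT6 or WNT10A, and the 3 tested genes nearest to each of these ligands could also be named. FZD2, FZD4, FZD5, FZD7, WNT1, WNT9A, TLE2, TLE3, TLE5, single marker genes and genes overlapping the 10 were named after their values were seen. GENCODE release 29 (GRCh38) gave the positions and matched 34339 of 35410 identifiers (97.0%). Promoter sequences come from RefSeq (GRCh38.p14). Alternatives were DESeq2 1.42.0, other normalizations and filters, the replicate number as a block, leaving out each library, other detection limits and the strand of the gene alone for motifs.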

Additional observations from a re-analysis of the deposited data

How the results depend on the processing

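Over 12 alternatives, the genes called higher over the whole table ranged from 4251 to 6828 and those called lower from 4230 to 5140, the extremes coming from filters that change how many genes are tested. Of the pathway genes, 16 to 28 were higher and 17 to 24 lower. Leaving out 1 library at a time gave 5312 to 5570 and 4626 to 4940 genes, and 22 to 24 and 19 to 22 pathway genes. FZD3, FZD6, AXIN1 and WNT10B kept their direction and stayed past the threshold in all 12, LRP6 (0.14 to 0.30) never passed it, and CTNNB1 lost it without SEM::mock replicate 3 alone. TCF7L2, never past the threshold, ranged from -0.14 to 0.17 when 1 library was left out.

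With the replicate number as a block (replicate block), 5388 genes were higher and 4693 lower, with 22 and 20 pathway genes, and no call of the 7 genes tested for their difference changed. The deviations of equally numbered libraries from the mean of their line correlated at -0.12, -0.08 and -0.04, which gives no sign of a pairing. With 3 libraries per line, these values cannot show whether equally numbered libraries were prepared together.

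Depth limits the genes that were off. With limits of 5 and 10 counts per library, the lower bounds were 25.1-fold and 12.5-fold for WNT6, 3.89-fold and 1.94-fold for WNT10A, and 1.78-fold and 0.888-fold for AXIN2, the last giving no bound above 1. On the strand of the gene alone, 3.11% of promoters held the EGR motif and 1.29% the TCF/LEF motif.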
